A study of Homo sapiens with 12 samples.

Results

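The BCL2 family decides whether a cell opens its mitochondria to apoptosis, and 10 of its genes were followed across 12 arrays of the multiple myeloma cell line KMS11, which is of human origin. The genes were taken by name in 3 classes. The rule uses no value, but it was chosen with earlier results of these data known. They were the pro-survival members BCL2, BCL2L1 and MCL1, the effectors BAX and BAK1, and the BH3-only members BCL2L11, BBC3, PMAIP1, BIK and BMF. The array named 18665 genes in all, of which 9857 had a probe bright enough to be tested, including 9 of these 10. The 10 genes had 23 probes, and 16 of them were tested. BBC3 was the member without a tested probe, and its values are given apart.

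KMS11 carries the t(4;14) translocation, which puts 1 allele of MMSET (now NSD2), a histone H3K36 methyltransferase, under immunoglobulin heavy chain control. The parental cells (WT) hold both the wild-type and the overexpressed MMSET allele. In NTKO cells the wild-type allele had been inactivated and the overexpressed allele remained, which makes NTKO, like WT, an MMSET-high line. TKO1 and TKO2 are different clones that had lost the overexpressed allele instead, and have low MMSET. All 4 lines were grown in the same medium, and each was hybridised to 3 arrays. NTKO is represented by 1 line and the TKO genotype by 2 clones, so the effect of an allele cannot be told apart from other differences between those clones. The labels do not say whether the arrays of a line came from separate cultures, so p-values measure the spread between these arrays only.

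Pro-survival BCL2 proteins sit on the outer mitochondrial membrane and hold the effectors BAX and BAK1 in check. When effectors are set free they form pores, cytochrome c leaves the mitochondrion, and caspases are activated. BH3-only proteins start this step by binding pro-survival proteins, and some of them also bind effectors directly. Malignant plasma cells are known for their reliance on MCL1, and BCL2 dependence varies between myelomas.

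Values below are log2 intensities after background correction and quantile normalisation, where 1 unit is a 2-fold change. TKO stands for the 6 arrays of TKO1 and TKO2, and a TKO mean is over those 6. Differences come from a limma model over all 15596 tested probes, with Benjamini-Hochberg adjusted p-values and a threshold of 0.05, and ± beside a difference is its standard error. A probe counted as detected on an array when its detection p-value lay under 0.05. The lead probe of a gene is its tested probe with the highest mean over the 12 arrays. Brightness was not compared between genes, because each probe has its own response.

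NTKO replicate 2 stood apart from the other NTKO arrays. Across the lead probes of the 9857 tested genes, its correlation with NTKO replicates 1 and 3 was 0.941 to 0.944. That was below its correlation with the WT arrays of 0.973 to 0.978, while NTKO replicates 1 and 3 correlated at 0.994. Replicates of the other lines correlated at 0.985 to 0.995. Of the 16 member probes tested, 13 (81.2%) lay nearer the WT mean than the mean of NTKO replicates 1 and 3 on that array, against 65.9% of all tested probes. The members' differences and the list counts are therefore given with all 12 arrays and without NTKO replicate 2, in which case NTKO rests on 2 arrays and the array was left out after its values were seen. NTKO replicates 1 and 3 had 16618 and 16684 detected probes, the most of any array, and NTKO replicate 2 had 15116, within the 14166 to 16450 of the other 9 arrays. The part of this in the differences below was not tested. The NSD2 probe that could be tested averaged 6.36 in WT, 6.27 in NTKO and 5.67 in TKO, and NTKO exceeded TKO by 0.59 (adjusted p = 0.0166). Of 7 plasma cell markers, 6 were detected on all arrays of WT and of NTKO and 5 on those of each TKO clone. SLAMF7 was not among them in any line and CD38 not in the TKO clones. Of the 6 tested, 4 were higher and 0 lower in NTKO than in TKO, namely CD38 (at least 5.37-fold, adjusted p = 6.05e-10), SDC1 (1.32), TNFRSF17 (0.64) and IRF4 (0.62). In WT 3 were higher than in TKO and 0 lower. Over all genes by lead probe, 15.2% were higher and 13.8% lower in NTKO, and 10.8% and 6.3% in WT. CD38 was detected on no TKO array and entered the test only through the lines where it is high. Its calls therefore add no support to these counts. Their summed intensity was 20700 to 21800 in WT, 16800 to 23800 in NTKO and 17700 to 21800 in TKO. No marker of T and NK, myeloid or stromal cells was detected throughout any line. Among erythroid and megakaryocyte markers only HBB was, and the summed intensity of that list was 247 to 257 in WT, 209 to 222 in NTKO and 308 to 438 in TKO. Whether these markers had a part in any member's difference was not tested.

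The comparison of NTKO with TKO sets cells with only the overexpressed allele against cells with only the wild-type allele, so both alleles differ in it. In it 7 of the 16 member probes rose in NTKO and 0 fell, whereas 13.7% of all tested probes were higher and 13.8% lower. The 7 probes belonged to 5 genes, PMAIP1, BCL2, BMF, BIK and MCL1, and their lead probes differed by 2.13, 1.30, 1.11, 1.02 and 0.92. By class, 3 of 6 pro-survival probes, 0 of 3 effector probes and 4 of 7 BH3-only probes rose. The median difference over the 16 probes was 0.66, beside -0.06 over all tested probes. Without NTKO replicate 2, 19 member probes could be tested, of which 10 rose and 1 fell, with 22.9% of all probes higher and 22.9% lower. That left 4 of 7 pro-survival and 6 of 9 BH3-only probes higher, and 1 of 3 effector probes lower. The 7 probes called with all arrays were all among the 10. The 10 also include the BBC3 probe, which was kept only through NTKO replicates 1 and 3, where it is high, so it had to differ and adds no support to these counts. The plot of lead probes by array shows where the members part from one another.

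**Figure D1:**
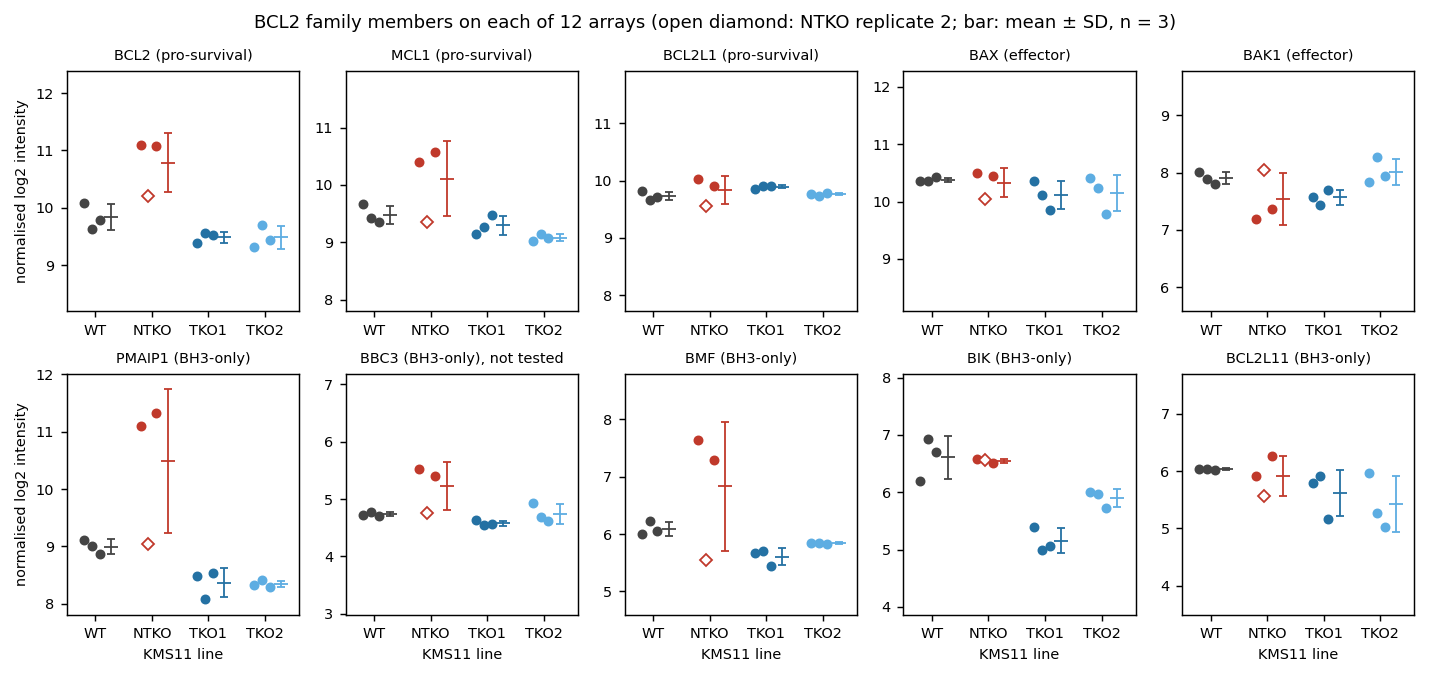
Normalised log2 intensity (y axis, the same span of log2 units in every panel) of the lead probe of each member, or the only probe of BBC3, on each of the 12 arrays by KMS11 line (x axis). Circles are arrays, the open diamond is NTKO replicate 2, and bars are mean ± SD of 3 arrays. On NTKO replicates 1 and 3 PMAIP1 reached 11.10 and 11.32 and BMF 7.64 and 7.30. NTKO replicate 2 lay near WT for PMAIP1, at 9.05, but below WT and inside the TKO range for BMF, at 5.55. The 3 NTKO arrays of BIK lay between 6.51 and 6.58.

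BCL2, the founding pro-survival member, was higher in NTKO than in TKO. Its lead probe read 10.08, 9.63 and 9.79 in WT, and 11.09, 10.20 and 11.07 on NTKO replicates 1, 2 and 3. In TKO the lowest value was 9.32, the median 9.47 and the highest 9.70. All 3 NTKO arrays lay above every WT and TKO array, but NTKO replicate 2 was only 0.37 above the WT mean, and WT and TKO overlapped. The difference from TKO was 1.30 ± 0.18, or 2.46-fold (adjusted p = 8.33e-05), and 1.59 ± 0.14 without NTKO replicate 2 (adjusted p = 8.32e-08). The second tested BCL2 probe read 10.32, 9.09 and 10.15 in NTKO, against 9.35, 9.0 and 9.0 in WT and 8.44 to 8.82 in TKO. It differed by 1.15 ± 0.21 (adjusted p = 0.00096) and by 1.53 ± 0.14 without NTKO replicate 2 (adjusted p = 1.53e-07). Both probes are annotated to the same BCL2 transcript variant. The other 2 BCL2 probes belong to another variant and were near background, detected on 2 and 3 of the 12 arrays.

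MCL1, a short-lived pro-survival protein, differed between its probes. The lead probe read 9.66, 9.42 and 9.36 in WT and 10.40, 9.36 and 10.57 in NTKO. TKO ran from 9.03 through a median of 9.14 to 9.47. NTKO replicates 1 and 3 were the highest of the 12 arrays, and NTKO replicate 2 lay inside the range of TKO. The difference from TKO was 0.92 ± 0.21 (adjusted p = 0.0037) and rose to 1.30 ± 0.13 without NTKO replicate 2 (adjusted p = 4.7e-07). The second MCL1 probe is annotated to the same transcript and read 9.17, 8.60 and 9.16 in NTKO, beside 8.31 to 8.79 in WT and 8.43 to 8.99 in TKO. It differed by 0.24 ± 0.17 (adjusted p = 0.328) and by 0.43 ± 0.16 without NTKO replicate 2 (adjusted p = 0.0412), so the size of the MCL1 difference depended on the probe.

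BCL2L1, which encodes BCL-XL, differed little. Its lead probe read 9.67 to 9.81 in WT, 10.03, 9.56 and 9.91 in NTKO and 9.74 to 9.91 in TKO, and the groups overlapped. The difference of NTKO from TKO was 0.01 ± 0.12, with a 95% interval from -0.26 to 0.27 (adjusted p = 0.977). A second BCL2L1 probe gave -0.32 ± 0.19 (adjusted p = 0.239). With that array left out these were 0.14 and -0.31, with adjusted p = 0.306 and 0.243. BCL2 and MCL1 followed each other over the arrays by their lead probes. After each lead probe was centred on its own mean, their root mean square difference over the 12 arrays was 0.21, the smallest of the 36 pairs among the 9 tested members. BAX came next, with BCL2L11 at 0.23 and with BCL2L1 at 0.24, and none of these was called by its lead probe. The measure is also small where levels vary little, and the second MCL1 probe was not used in it.

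The effectors BAX and BAK1, which form the mitochondrial pores, gave 0 called probes with all arrays. The lead probe of BAX read 10.36, 10.36 and 10.42 in WT, 10.50, 10.04 and 10.44 in NTKO, and 9.79 to 10.41 in TKO with a median of 10.18. It differed by 0.20 ± 0.16 (adjusted p = 0.372), with a 95% interval from -0.14 to 0.54. A second tested BAX probe gave -0.05 ± 0.21 (adjusted p = 0.893). The remaining BAX probe was detected on 2 of the 12 arrays and was not tested. The tested BAX probes without that array stood at 0.34 and -0.26, with adjusted p = 0.08 and 0.334.

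BAK1 was low on the same 2 arrays on which BCL2 and PMAIP1 were high. Its only probe read 7.2 and 7.37 on NTKO replicates 1 and 3 and 8.05 on NTKO replicate 2. WT read 8.02, 7.89 and 7.81. The TKO1 arrays ran from 7.44 to 7.69 and the TKO2 arrays from 7.84 to 8.27, so the clones did not overlap. NTKO replicates 1 and 3 were the lowest of the 12 arrays. With all arrays the difference of NTKO from TKO was -0.25 ± 0.18 (adjusted p = 0.32). Without NTKO replicate 2 it was -0.51 ± 0.15, or 1.42-fold lower (adjusted p = 0.0104). Against WT it was then -0.62 ± 0.17 (adjusted p = 0.00829). The BAK1 call therefore appeared only when that array was left out.

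PMAIP1, which encodes NOXA, a BH3-only protein that binds MCL1, had the largest difference of the family between NTKO and TKO. Its lead probe read 9.12, 9.0 and 8.86 in WT, and 11.10, 9.05 and 11.32 on NTKO replicates 1, 2 and 3. TKO ran from 8.08 through a median of 8.36 to 8.54. All WT and NTKO arrays lay above all TKO arrays, and NTKO replicate 2 was 0.06 from the WT mean, 2.15 below the mean of the other NTKO arrays. The difference from TKO was 2.13 ± 0.37, or 4.38-fold (adjusted p = 0.000759), and 2.85 ± 0.14, or 7.21-fold, without NTKO replicate 2 (adjusted p = 8.76e-11). The second PMAIP1 probe read 8.81, 7.17 and 8.97 in NTKO, 7.05 to 7.21 in WT and 5.94 to 6.83 in TKO. It repeated the pattern with 1.88 ± 0.31 (adjusted p = 0.000427), and with 2.45 ± 0.19 without NTKO replicate 2 (adjusted p = 2.12e-08).

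BMF, a BH3-only protein tied to the cytoskeleton in resting cells, split the NTKO arrays further. Its lead probe read 6.0, 6.23 and 6.05 in WT and 7.64, 5.55 and 7.30 in NTKO. TKO ran from 5.44 through a median of 5.76 to 5.85. NTKO replicate 2 lay 0.55 below the WT mean and inside the TKO range, while the other NTKO arrays were the highest of the 12. The difference from TKO was 1.11 ± 0.32 (adjusted p = 0.0191) with all arrays and 1.75 ± 0.16, or 3.36-fold, without NTKO replicate 2 (adjusted p = 2.09e-07). With either of the other NTKO arrays left out in its place, the call was lost, at 0.70 without NTKO replicate 1 (adjusted p = 0.146) and 0.87 without NTKO replicate 3 (adjusted p = 0.114). The second tested BMF probe read 7.62, 4.95 and 7.44 in NTKO, and NTKO replicate 2 was there the lowest of the 12 arrays. It did not pass with all arrays (0.97 ± 0.45, adjusted p = 0.127) and passed without NTKO replicate 2 (1.83 ± 0.20, adjusted p = 1.26e-06). The other 2 BMF probes were detected on 0 of the 12 arrays.

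The promoters of PMAIP1 and BMF, the BH3-only genes with the largest differences, are shown as background, with that of BAX for an effector that did not pass. They are the 250 bases before the annotated start on the gene's strand, from RefSeq (GRCh38.p14). Capitals mark GGGCGG, the GC box, and CACGTG, the E-box.
PMAIP1, chr18:59899746-59899995, plus strand: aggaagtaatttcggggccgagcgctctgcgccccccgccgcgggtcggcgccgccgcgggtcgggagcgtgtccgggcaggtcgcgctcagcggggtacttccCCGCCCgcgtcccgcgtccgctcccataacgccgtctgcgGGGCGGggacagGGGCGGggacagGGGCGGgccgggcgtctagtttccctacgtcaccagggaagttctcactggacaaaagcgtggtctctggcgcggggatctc
BMF, chr15:40108880-40109129, minus strand: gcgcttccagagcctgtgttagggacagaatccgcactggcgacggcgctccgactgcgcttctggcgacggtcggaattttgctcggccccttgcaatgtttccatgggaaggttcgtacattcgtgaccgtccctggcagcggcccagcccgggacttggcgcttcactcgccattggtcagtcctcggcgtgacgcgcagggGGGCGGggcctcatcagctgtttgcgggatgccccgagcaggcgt
BAX, chr19:48954625-48954874, plus strand: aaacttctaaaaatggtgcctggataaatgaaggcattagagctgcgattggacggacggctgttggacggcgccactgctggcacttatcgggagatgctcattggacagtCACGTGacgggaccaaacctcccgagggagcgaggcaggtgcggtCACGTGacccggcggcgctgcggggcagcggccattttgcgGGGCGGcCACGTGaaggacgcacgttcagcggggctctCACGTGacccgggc
PMAIP1 holds 4 GC boxes, BMF 1 and BAX 1, and BAX also holds 4 E-boxes. BMF has a second annotated start, whose stretch lies inside the gene, is not printed and holds 0 GC boxes. Of 10 such stretches found for 8 of the members, 5 held a GC box and 2 an E-box, and 1, that of BCL2L11, held GTAAACA, a FOXO motif. None held TGATGNAA, the CARE element that ATF4 and CHOP bind, or the CRE TGACGTCA. On either strand and without overlap in these 3 stretches, the GC box was found in 42.6% of all 35114 stretches of that length, the E-box in 6.35%, the FOXO motif in 2.98%, CARE in 3.14% and CRE in 1.65%. These are letters in a window and not measured binding, and no chromatin data were used here.

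BBC3, which encodes PUMA, a BH3-only protein that binds every pro-survival member, was detected on NTKO replicates 1 and 3 alone. Its only probe read 5.53 and 5.40 there, 4.76 on NTKO replicate 2, 4.70 to 4.77 in WT and 4.54 to 4.93 in TKO. Against the lowest detected signal of the dim arrays, NTKO replicates 1 and 3 were at least 1.38-fold above WT and at least 1.29-fold above TKO. Without NTKO replicate 2 the probe entered the test, with adjusted p = 2.05e-05 against TKO and 0.000319 against WT. It entered only through the line in which it was high. It is 1 of the 10 member probes called against TKO without that array and supports nothing there.

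BIK, a BH3-only protein of the endoplasmic reticulum, behaved differently from the other members that rose. It read 6.20, 6.93 and 6.71 in WT, and 6.58, 6.56 and 6.51 in NTKO. TKO1 read 5.40, 5.0 and 5.07 and TKO2 6.01, 5.97 and 5.72, detected on 1 and 3 arrays of 3. Every WT and NTKO array was above every TKO array, and NTKO replicate 2 matched its replicates. NTKO exceeded TKO by 1.02 ± 0.18, or 2.03-fold (adjusted p = 0.000566), and by 1.01 ± 0.20 without NTKO replicate 2 (adjusted p = 0.000481). WT exceeded TKO by 1.09 ± 0.18, or 2.13-fold (adjusted p = 0.000448). NTKO and WT differed by -0.07 ± 0.21, with a 95% interval from -0.51 to 0.37. The TKO clones did not overlap for BIK, at a difference of -0.74 ± 0.21 for TKO1 minus TKO2 (adjusted p = 0.163, unadjusted p = 0.00266).

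BCL2L11 encodes BIM, a BH3-only protein that can bind effectors directly. Its lead probe was detected on 11 of the 12 arrays and read 6.04, 6.04 and 6.01 in WT, 5.92, 5.57 and 6.26 in NTKO and 5.03 to 5.97 in TKO, with a median of 5.52. WT lay just above every TKO array, NTKO overlapped both, and NTKO differed from TKO by 0.40 ± 0.23 (adjusted p = 0.211). A second probe was tested only because it was detected on all WT arrays, and on NTKO and TKO arrays it was detected 2 of 3 and 1 of 6 times. It differed by 0.28 ± 0.17 (adjusted p = 0.23). The remaining probe, detected on 7 of the 12 arrays, could be tested only without NTKO replicate 2. In that fit the 3 differences were 0.57, 0.39 and 0.31, with adjusted p = 0.0591, 0.0782 and 0.118.

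WT minus TKO asks a narrower question, since both keep the wild-type allele and by genotype only the overexpressed allele differs. It shares the TKO arrays with the comparison above. With all arrays 2 of the 16 member probes rose in WT and 0 fell, when 9.93% of all tested probes were higher and 5.87% lower. They were BIK and the second BCL2L11 probe (adjusted p = 0.047). The latter read 5.52, 5.58 and 5.34 in WT and 4.68 to 5.32 in TKO, where it was detected on 1 of 6 arrays. It had entered the test only through WT, where it is high, so of the 2 calls only that of BIK stands for a member measured in both groups. The lead probe of BCL2L11, detected on all WT arrays and on 5 of 6 TKO arrays, stood at 0.51 ± 0.23 and did not pass (adjusted p = 0.153). The lead probes of PMAIP1, BCL2, BMF and MCL1 stood at 0.64, 0.35, 0.37 and 0.29 in WT minus TKO, with adjusted p = 0.284, 0.24, 0.493 and 0.39. NTKO replicate 2 also sets the spread used for this contrast, and without it 6 of 19 member probes rose, with 13.6% of all probes higher and 10.5% lower. Both PMAIP1 probes then passed (lead 0.64 ± 0.12, adjusted p = 0.000994), as did the lead and second BCL2 probes (lead 0.35 ± 0.12, adjusted p = 0.0457). The differences themselves are the same in both fits, since no WT or TKO array was left out, and only their errors moved. All 6 TKO arrays lay below the lowest WT array for both PMAIP1 probes.

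NTKO minus WT tests directly whether the MMSET-high lines differ. In it 2 of the 16 member probes rose in NTKO and 0 fell, beside 2.92% of all tested probes higher and 4.28% lower. The 2 were the lead probes of BCL2 (0.95 ± 0.21, adjusted p = 0.015) and PMAIP1 (1.5 ± 0.42, adjusted p = 0.0496). Without NTKO replicate 2, 9 of 19 rose and 2 fell, when 16.4% of all probes were higher and 16.5% lower. Here too 1 of the 9 is the BBC3 probe, which was tested only through NTKO and supports nothing. The lead probes of PMAIP1, BMF, BCL2 and MCL1 then stood at 2.21, 1.37, 1.25 and 1.01 above WT, and the 2 probes that fell were those of BAK1 and the second of BAX (-0.66 ± 0.23, adjusted p = 0.0373). Of the genes with a tested probe, BIK, BCL2L1 and BCL2L11 had none that passed there. The 95% intervals of NTKO minus WT ran from -0.02 to 0.50 for the lead probe of BCL2L1 and from -0.50 to 0.62 for that of BCL2L11.

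**Figure D2:**
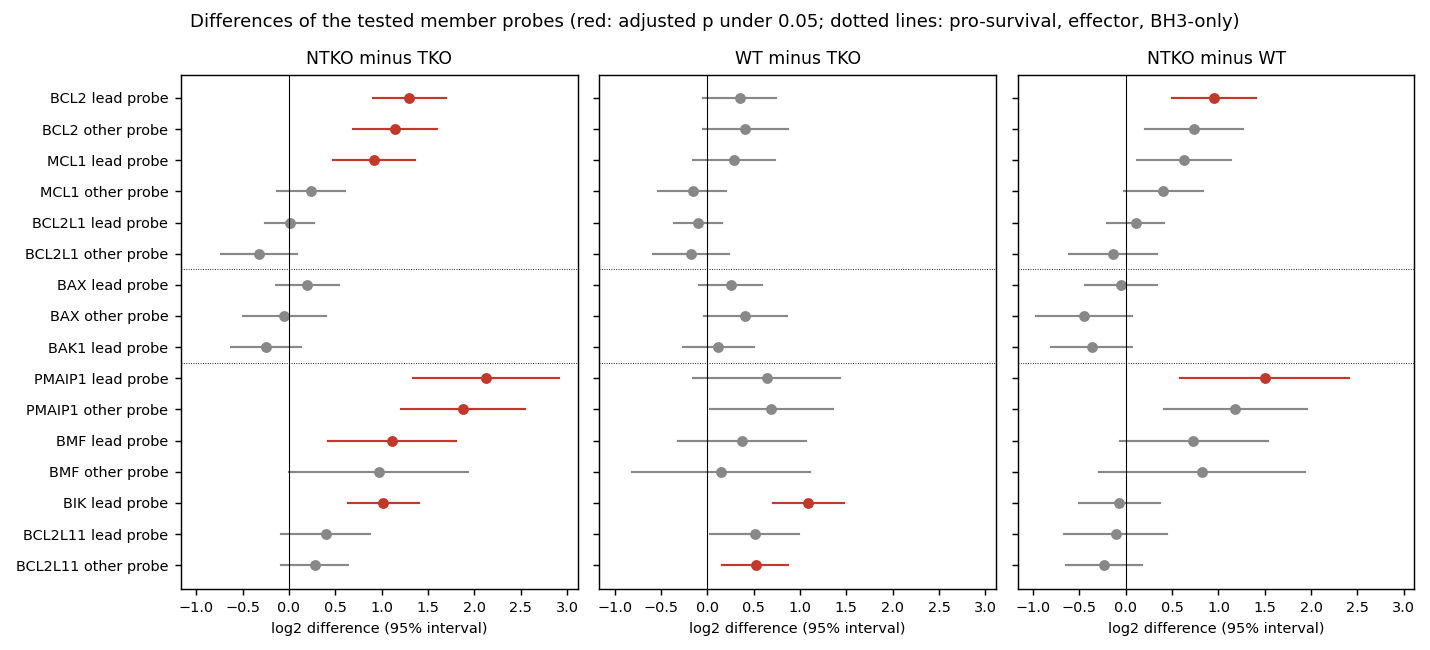
Log2 difference (x axis) with its 95% interval for the 16 tested member probes (y axis), in 3 comparisons with all 12 arrays. Red marks adjusted p under 0.05 and dotted lines part the pro-survival, effector and BH3-only classes. In NTKO minus TKO 7 probes are red, in WT minus TKO BIK and the second BCL2L11 probe are, and in NTKO minus WT the lead probes of BCL2 and PMAIP1 are.

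TKO1 and TKO2 carry the same genotype, and 0 of the 16 member probes passed between them in limma, where 0.487% of all tested probes were higher in TKO1 and 0.231% lower. At an unadjusted p under 0.05, 2 member probes differed, those of BIK and BAK1 (-0.45 ± 0.21, unadjusted p = 0.0453), and both were lower in TKO1. With NTKO replicate 2 left out it was 0 of 19, with 1.17% of all probes higher and 0.896% lower. The lead probes of BCL2, PMAIP1 and MCL1 differed with all arrays by 0.00 ± 0.21, 0.03 ± 0.42 and 0.21 ± 0.24 between the clones.

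**Figure D3:**
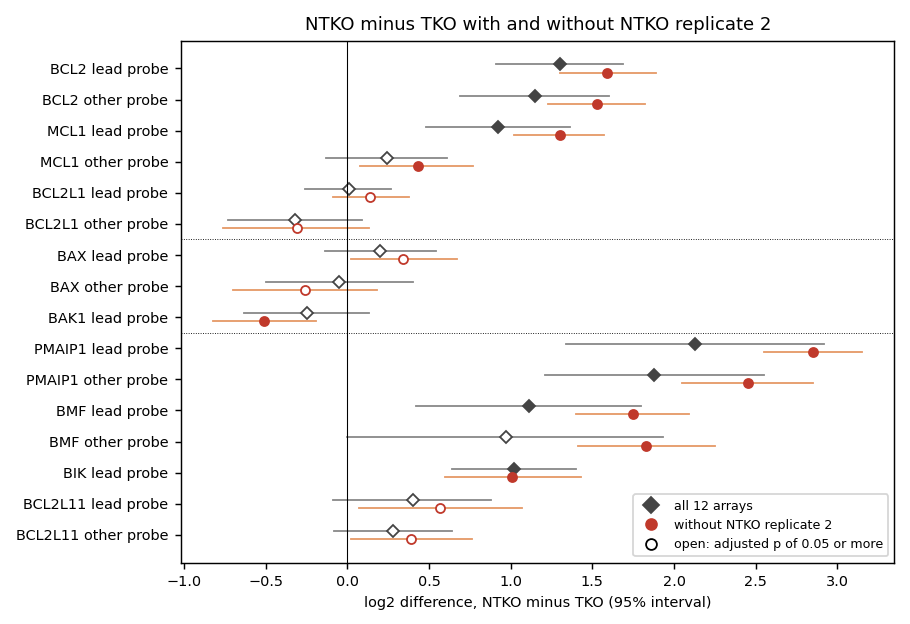
Log2 difference of NTKO minus TKO (x axis) with its 95% interval for the 16 tested member probes (y axis), with all 12 arrays (diamonds) and without NTKO replicate 2 (circles). Open symbols had an adjusted p of 0.05 or more. Leaving the array out moved PMAIP1 from 2.13 to 2.85 and BMF from 1.11 to 1.75 and shortened their intervals, while BIK stayed at 1.02 and 1.01 and BAK1 went from -0.25 to -0.51.

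Other genes of the apoptosis pathway were counted from lists by their lead probes, of which 15.2% of all genes were higher and 13.8% lower in NTKO than in TKO, and 10.8% higher and 6.3% lower in WT than in TKO. Of the other BCL2 family genes, 10 of 13 were tested, and 2 rose and 0 fell in NTKO. HRK, a BH3-only gene, read 6.02, 5.13 and 5.69 in NTKO and was detected on no TKO array, which made it at least 1.43-fold higher (adjusted p = 0.000266). It was tested only through NTKO, so its call is no independent count. BCL2L2, which encodes the pro-survival BCL-w, rose by 0.71 ± 0.19 (adjusted p = 0.0128), and by 0.90 without NTKO replicate 2 (adjusted p = 0.000992). In WT minus TKO, 2 of the 10 rose and 1 fell, namely BNIP3 (0.82 ± 0.13, adjusted p = 0.000391), BCL2L12 (0.56 ± 0.15, adjusted p = 0.0185) and BCL2A1 (-0.53 ± 0.17, adjusted p = 0.0483).

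Downstream of the mitochondrion, 1 of the 5 tested genes of the apoptosome and caspases rose in NTKO and 1 fell. APAF1, the scaffold of the apoptosome, read 8.64, 7.09 and 8.51 in NTKO, 7.49 to 8.23 in WT and 6.83 to 7.10 in TKO, and rose by 1.11 ± 0.28 (adjusted p = 0.00746), or by 1.61 without NTKO replicate 2 (adjusted p = 2.21e-06). CASP6, an executioner caspase, fell by 0.72 (adjusted p = 0.000466) and was lower on all 3 NTKO arrays, 9.39 to 9.47, than on any TKO array. It was also lower in WT than in TKO, by 0.41 (adjusted p = 0.0339). Among inhibitors of apoptosis and their antagonists, 0 of 6 tested genes rose and 2 fell in NTKO. They were HTRA2, a mitochondrial protease that antagonises these inhibitors (-0.70 ± 0.14, adjusted p = 0.00157), and BIRC5, survivin (-0.51 ± 0.14, adjusted p = 0.0134). BIRC5 was lower in WT than in TKO as well (-0.50 ± 0.14, adjusted p = 0.0223). Of 5 tested genes for MCL1 protein turnover, 0 passed in limma in either comparison, with medians of 0.05 for NTKO and 0.15 for WT against TKO.

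The death receptor pathway had 3 of 9 tested genes higher and 2 lower in NTKO, and 0 in WT minus TKO. TNFRSF10B, the TRAIL receptor DR5, read 10.49 and 10.16 on NTKO replicates 1 and 3 and 7.56 on NTKO replicate 2, beside 7.54 to 7.68 in WT and 6.48 to 7.16 in TKO. It rose by 2.57 ± 0.47 (adjusted p = 0.00157), and by 3.49 without NTKO replicate 2 (adjusted p = 1.47e-11). TNFRSF1A and CFLAR, a TNF receptor and an inhibitor of caspase-8, rose by 0.82 and 0.57 (adjusted p = 0.00952 and 0.0422). NTKO replicate 2 lay inside the TKO range for both, at 6.95 for TNFRSF1A (TKO 6.69 to 7.05) and 8.79 for CFLAR (TKO 8.51 to 9.12). FAS and FADD, a death receptor and its adaptor, were the 2 that fell, by 0.55 and 0.41 (adjusted p = 0.00572 and 0.0488). They lay outside the naming rule and were named after their values were seen, because the count was small. For FADD, NTKO replicate 2 read 9.26, inside the TKO range of 9.23 to 9.5.

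Transcription factors known to act on BH3-only genes had 3 of 7 tested genes higher and 1 lower in NTKO, and 1 higher and 1 lower in WT minus TKO. ATF3, a stress-induced factor, read 10.21 and 10.39 on NTKO replicates 1 and 3 and 6.31 on NTKO replicate 2. It read 6.05 to 6.32 in WT, 5.75 to 6.34 in TKO1 and 6.91 to 7.2 in TKO2, and rose by 2.43 ± 0.69 over TKO (adjusted p = 0.0212), or by 3.76 without NTKO replicate 2 (adjusted p = 3.58e-11). MYC rose in both comparisons, by 0.54 in NTKO (adjusted p = 0.0028) and 0.49 in WT (adjusted p = 0.0083), and without NTKO replicate 2 its NTKO difference was 0.49. FOXO1 rose in NTKO by 0.62 (adjusted p = 0.0286), and FOXO3 was the gene that fell in both comparisons, with -0.53 in NTKO (adjusted p = 0.0298) and -0.78 in WT (adjusted p = 0.00464). For FOXO1, NTKO replicate 2 read 7.53, inside the TKO range of 6.6 to 7.78. DDIT3, which encodes CHOP and was picked out after its values were seen, read 11.63 and 11.36 on NTKO replicates 1 and 3 and 7.58 on NTKO replicate 2. It read 7.87 to 8.11 in WT, 7.61 to 8.54 in TKO1 and 8.42 to 9.09 in TKO2, so NTKO replicate 2 lay below every TKO array and TKO2 above every WT array. Its difference from TKO did not pass with all arrays (1.81 ± 0.71, adjusted p = 0.0796) and did without NTKO replicate 2 (3.12, adjusted p = 3.82e-09).

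**Figure D4:**
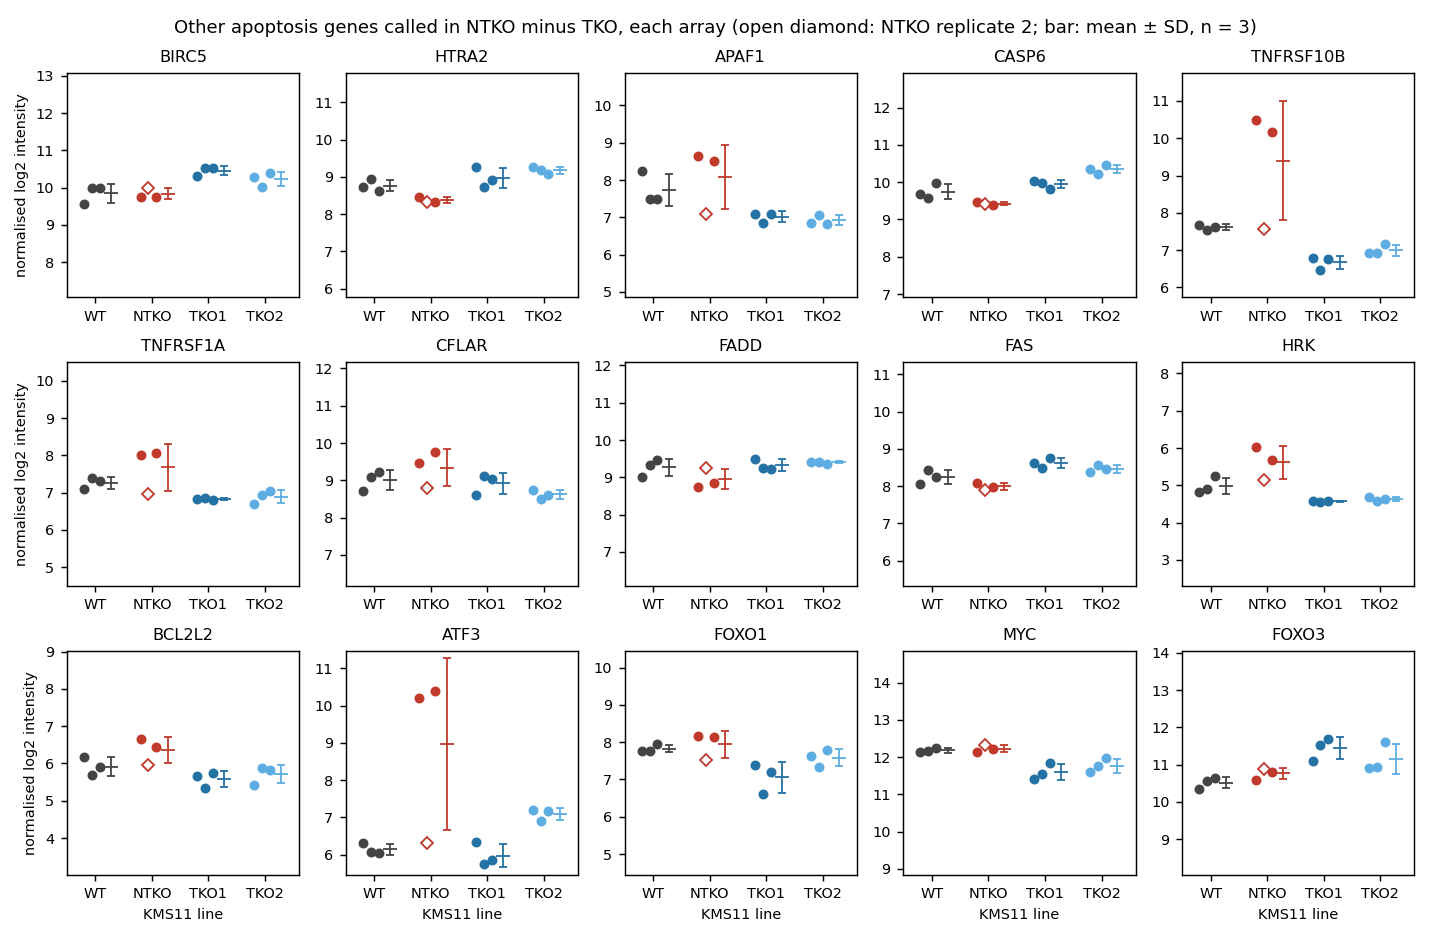
Normalised log2 intensity (y axis, the same span of log2 units in every panel) on each array by KMS11 line (x axis) for the 15 genes of the other apoptosis lists called in NTKO minus TKO. Circles are arrays, the open diamond is NTKO replicate 2, and bars are mean ± SD of 3 arrays. TNFRSF10B and ATF3 are high on NTKO replicates 1 and 3 alone, at 10.16 to 10.49 and 10.21 to 10.39, whereas HTRA2 and CASP6 are alike on all 3 NTKO arrays.

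Without NTKO replicate 2, when 24.8% of all genes were higher and 23.7% lower in NTKO than in TKO, more genes were called in every list but that of MCL1 turnover, which stayed at 0. In the order used above, 3 other BCL2 family genes were higher and 1 lower, 2 apoptosome and caspase genes higher and 3 lower, 1 inhibitor or antagonist higher and 2 lower, 4 death receptor genes higher and 4 lower, and 5 transcription factors higher and 1 lower. The 15 genes called in NTKO minus TKO with all arrays were all called in the same direction there. They include HRK, which was tested only through NTKO and adds no support to these counts.

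In WT minus TKO without that array, 14.8% of all genes were higher and 11.1% lower. In the same order of lists, 3 genes were higher and 1 lower, 1 higher and 1 lower, 0 higher and 1 lower, 2 higher and 0 lower, and 2 higher and 1 lower. The higher genes of the first list include HRK (0.39, adjusted p = 0.0198 in limma), detected on 1 WT array and on 0 TKO arrays. HRK was tested only through NTKO, so its call supports nothing here. The death receptor genes that passed were TNFRSF10B (0.78, adjusted p = 0.000217) and TNFRSF1A (0.40, adjusted p = 0.0319), with every WT array above every TKO array for each. Of the MCL1 turnover genes 1 was then lower, GSK3B, a kinase that marks MCL1 for degradation (-0.36, adjusted p = 0.0422). GSK3B lay outside the naming rule and was named after its values were seen, because the count was small.

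Genes whose levels ran most like those of the 3 members with the largest called differences were found over all 12 arrays among 9856 other genes, by the root mean square difference of mean-centred log2 values. NCOA7 (0.15), TMEM47 (0.17) and TSC22D3 (0.19) were nearest to PMAIP1, whose own range was 3.24. TSC22D3 read 11.76, 9.04 and 11.81 on NTKO replicates 1, 2 and 3, against 9.37 to 9.67 in WT. MBNL2 (0.13), C5 (0.16) and PPM1A (0.17) were nearest to BCL2, whose range was 1.77. In TKO, TMEM47 read 4.59 to 4.77 and MBNL2 4.53 to 4.70, under the lowest detected signal of the TKO arrays, 4.99 to 5.26. Their TKO values are therefore near background and not measured levels. FAM24B, UBALD2 and CCDC28A were nearest to BMF, each at 0.17 with a range of 2.20 in BMF. All 9 genes were highest on NTKO replicates 1 and 3, as the members they were matched to were, and the arrays are the same ones on which the members were measured.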

How the data were processed

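Total RNA of 4 KMS11 lines was measured on 12 Illumina HumanWG-6 v3 arrays. The authors exported them with GenomeStudio (version not stated). The deposited export gives 48803 background-subtracted intensity values per array, not normalised between arrays, each with a detection p-value. The authors' processed intensity values, deposited separately with medians of 3.4 to 3.5 per column, served as an alternative.

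Values were corrected and quantile normalised with neqc (limma 3.58.1, R 4.3.3, offset 16, control signal inferred from detection p-values). The platform annotation, updated by gene identifier through RefSeq, named 1 gene for 27578 probes, several for 13 and none for 21212. Probes with detection p-values under 0.05 on every array of 1 line or more were tested, 15596 in all. The model had 1 mean per line (lmFit, eBayes with trend and robust, two-sided, Benjamini-Hochberg over all tested probes), and was tested on simulated data. An at-least fold sets the bright mean against the lowest detected signal of each dim array.

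The members, lists and tests were chosen with earlier results of these data known. All members were named, and a gene of another list was named if called in NTKO or WT minus TKO and among the 3 largest differences of its list there. Alternatives were other normalisations, background corrections, filters and sources of values, a replicate block, leaving out each array, and the methods' t-test, an equal-variance two-sample test at p under 0.002. List counts and the BBC3 bound without NTKO replicate 2 were added after the data were seen. The methods describe 6 arrays each of NTKO and TKO, whereas the labels give 3 NTKO arrays. Slides and scan dates were not used here, and the 3 arrays per line limit the precision. Figures were drawn with matplotlib 3.10.9.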

Additional observations from a re-analysis of the deposited data

Results flagged for a closer look

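The lead probes of BCL2 and PMAIP1 differed between the MMSET-high lines themselves, so by these probes the difference from TKO was larger in NTKO than in WT. NTKO exceeded WT by 0.95 for BCL2 (adjusted p = 0.015) and by 1.5 for PMAIP1 (adjusted p = 0.0496), in the direct limma contrast. The second probes gave 0.74 and 1.18 there and did not pass (adjusted p = 0.0837 and 0.0613). Each call with all arrays therefore rests on 1 probe. By the lead probes, NTKO was above every WT array on 3 of 3 arrays for BCL2, and on 2 of 3 arrays for PMAIP1. On the second BCL2 probe NTKO replicate 2 read 9.09, below WT replicate 1 at 9.35. BBC3, left out of the main test because it was not detected on all arrays of any line, was detected on 2 NTKO arrays, replicates 1 and 3, and on 0 of the WT and TKO arrays.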

How the results depend on the processing

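Most results kept their direction and their side of the threshold. Without each array in turn, member probes called numbered 6 to 11 in NTKO minus TKO, 1 to 6 in WT minus TKO, 0 to 11 in NTKO minus WT and 0 in TKO1 minus TKO2. In each of the first 3 the highest count came without NTKO replicate 2. Calls over all tested probes also varied, from 2657 to 7509 in NTKO minus TKO and from 1603 to 3946 in WT minus TKO. They too were highest without NTKO replicate 2. In NTKO minus WT, 16.4% of all probes were then higher and 16.5% lower, against 2.92% and 4.28% with all arrays. The counts of 11 include the BBC3 probe, which was tested only through NTKO and supports nothing. In NTKO minus TKO, the methods' t-test called 1 at its threshold and 5 after Benjamini-Hochberg, with 1497 and 2526 probes called in all. The other settings that kept every array called 5 to 8, with 2938 to 4665 probes called in all. In WT minus TKO, 1 was called with no model-based background correction, with the authors' processed values, with no filter on dim probes, with the stricter filter, and after adjustment over lead probes. Calls over all probes in those settings ranged from 1654 to 2498. The methods' t-test at its threshold also called 1, but that was PMAIP1, and BIK was lost there and after Benjamini-Hochberg. In NTKO minus WT, 1 was called with cyclic loess, no model-based background correction, the authors' processed values and no filter, and 0 with median centring, which moved the median of all probes to -0.18 there and to 0.15 in WT minus TKO. The PMAIP1 call in NTKO minus WT was lost in 16 of 20 settings (adjusted p up to 0.198) and that of BCL2 in 5 of 20 (up to 0.0874), while the BCL2, PMAIP1 and BIK calls in NTKO minus TKO held in all 22 settings with adjusted p-values. The MCL1 call in NTKO minus TKO was lost in 1 of 22 settings, the methods' t-test after Benjamini-Hochberg (adjusted p = 0.0577). That of BMF was lost in 4 of 21 (adjusted p up to 0.146). At the methods' threshold the lead probes of PMAIP1, BIK, MCL1 and BMF did not pass in NTKO minus TKO.

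Reversals of sign touched only lead probes that were not called. BCL2L1 went to -0.05 in NTKO minus TKO with WT and NTKO averaged, and with median centring to 0.16 in WT minus TKO and -0.15 in NTKO minus WT. BAX went to 0.01 in TKO1 minus TKO2 with median centring. Leaving out arrays gave -0.09 to 0.14 for BCL2L1 in NTKO minus TKO. In NTKO minus WT it gave -0.14 to 0.09 for BAX, -0.28 to 0.06 for BCL2L11 and -0.27 to 0.09 for BIK. In TKO1 minus TKO2 it gave -0.08 to 0.11 for BCL2, -0.22 to 0.09 for BAX and -0.06 to 0.17 for PMAIP1. The cause of these changes was not tested.

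The deviations of same-numbered arrays correlated at -0.14 to 0.50, not above 0.1 in every pair, so the numbers were not taken as pairs, although 8 of 12 arrays correlated best with their own number, a hint from the data and not the design. With the replicate block the calls numbered 7, 2, 3 and 0 in the 4 comparisons, against 7, 2, 2 and 0 without it.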
